A study of Homo sapiens with 16 samples.

Results

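OTOF, DYSF and MYOF are genes of the ferlin family, and they are 3 of the 60603 genes in the count table of this study and 3 of its 6 ferlin genes. They were taken by gene symbol, and every value below comes from their rows in 16 RNA-seq libraries. OTOF was chosen from its measured values, because it stood out between Corin and DMSO in the SKNO-1 line. For that reason its SKNO-1 levels are described without a test wherever the DMSO or Corin libraries are compared. Its differences between the lines are also described without a test. DYSF and MYOF were taken with it as family members, and it is not recorded which of their values were known at that point, so their p-values are not independent evidence of a response of the family.

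Ferlins are large proteins anchored in membranes by a single helix near their end, with a row of C2 domains that bind phospholipids, in several cases with calcium. Otoferlin, the product of OTOF, is known from the inner hair cells of the ear, where it is needed for transmitter release at ribbon synapses. Dysferlin, the product of DYSF, takes part in resealing of torn muscle membranes and is also made by blood monocytes. Myoferlin, the product of MYOF, is known from fusing myoblasts, endothelial cells and many tumour cells.

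The libraries came from 2 human acute myeloid leukaemia lines, SKNO-1, which carries the RUNX1::RUNX1T1 fusion, and U-937, a line of monocytic type. Each line had 4 groups of 2 libraries after 24 h: the solvent DMSO, all-trans retinoic acid (ATRA) at 0.1 µM, Corin at 0.1 µM, and both agents at 0.1 µM each. ATRA is the ligand of the retinoic acid receptors, and Corin is a compound that inhibits the histone deacetylase and the histone demethylase of the CoREST complex. No gene was altered and no animals or donors were involved, so each line is a single cultured model. The SKNO-1 medium also held GM-CSF at 10 ng/mL, which the labels do not name for U-937, so line and medium cannot be told apart. The labels do not say that the 2 libraries of a group came from separate cultures, so the p-values measure only the spread between these libraries.

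The depth of the SKNO-1 libraries was 32.8 to 37.8 M estimated counts, and that of the U-937 libraries 28.4 to 37.6 M. The fusion partner RUNX1T1 averaged between 106 and 155 CPM (counts scaled to library size) in the SKNO-1 groups and at most 0.0165 CPM in the U-937 groups, while HOXA9 and HOXA10 were listed at 0 in SKNO-1 and averaged at least 39.2 CPM in U-937, as the line labels require. The 2 SKNO-1 DMSO libraries stood apart: the SD of the log2 difference between them over genes was 0.365, against 0.11 to 0.211 in the other 7 groups. That difference correlated with GC content over genes (r = 0.797). A GC trend was not confined to this pair: r was 0.584 in U-937 DMSO, -0.51 in SKNO-1 ATRA and 0.393 in U-937 with both agents. It was weaker in the remaining groups. For DYSF, MYOF and some gene lists, several SKNO-1 results that rest on DMSO are also given with a SKNO-1 DMSO library left out. Results of other single genes against DMSO in SKNO-1 are given without this check.

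OTOF lies on chromosome 2 (GRCh38, 26457203 to 26558756, minus strand, identifier ENSG00000115155.17), DYSF on chromosome 2 (71453561 to 71686763, plus strand, ENSG00000135636.14) and MYOF on chromosome 10 (93306429 to 93482334, minus strand, ENSG00000138119.17). All of them are annotated as protein coding in GENCODE release 44. The 250 bases before each start in the promoter set used here are printed, not those before every annotated transcript start. They are given because all 3 genes were highest, in each line, in a group that received Corin. A further reason is that OTOF has 2 promoters in that set, at the start of its long transcripts and, inside the gene, of shorter ones. DYSF and MYOF have 1 each there. The printed windows are RefSeq sequences of GRCh38.p14 in the direction of transcription, 5′ to 3′, and capitals mark every match to the motifs searched.
OTOF, upstream promoter, chr2:26558757-26559006, minus strand: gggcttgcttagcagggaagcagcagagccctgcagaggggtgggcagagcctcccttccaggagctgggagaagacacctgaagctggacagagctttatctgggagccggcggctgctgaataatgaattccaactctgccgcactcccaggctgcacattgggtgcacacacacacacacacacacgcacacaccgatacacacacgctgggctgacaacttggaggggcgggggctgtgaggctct
OTOF, internal promoter, chr2:26478125-26478374, minus strand: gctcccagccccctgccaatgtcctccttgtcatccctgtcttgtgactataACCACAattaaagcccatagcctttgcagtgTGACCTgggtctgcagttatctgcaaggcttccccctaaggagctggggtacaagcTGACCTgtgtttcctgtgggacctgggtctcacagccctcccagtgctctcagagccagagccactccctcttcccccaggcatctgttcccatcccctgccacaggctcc
DYSF, chr2:71453311-71453560, plus strand: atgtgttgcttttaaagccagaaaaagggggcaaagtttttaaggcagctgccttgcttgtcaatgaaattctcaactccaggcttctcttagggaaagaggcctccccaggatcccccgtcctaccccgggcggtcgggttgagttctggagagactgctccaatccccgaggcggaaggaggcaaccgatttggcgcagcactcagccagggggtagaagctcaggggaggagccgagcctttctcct
MYOF, chr10:93482335-93482584, minus strand: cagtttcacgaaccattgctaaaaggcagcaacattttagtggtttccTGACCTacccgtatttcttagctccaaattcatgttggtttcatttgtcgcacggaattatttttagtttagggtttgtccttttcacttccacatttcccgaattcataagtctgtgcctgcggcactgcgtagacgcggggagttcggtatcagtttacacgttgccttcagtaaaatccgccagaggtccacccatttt

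The motifs were searched on both strands. They were the nuclear receptor half-site AGGTCA and its direct repeats with 1, 2 or 5 bases between them (AGGTCANAGGTCA, AGGTCANNAGGTCA and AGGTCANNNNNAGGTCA, each of which contains the half-site), TGTGGT for RUNX factors, GAGGAA for PU.1, AAATCAC as the core of the GFI1 motif, and TGANTCA for AP-1. The internal OTOF promoter held the half-site at 2 places, 167 and 111 bases before the start, and the RUNX letters once, 198 bases before it, each on the opposite strand. The MYOF window held 1 half-site, 202 bases before the start. No match was found in the windows of DYSF and of the upstream OTOF promoter. Long DYSF transcripts such as DYSF-202 open at position 71466702 instead, and the bases before that start were not searched. Of 35116 promoter windows of the same length, 12.1% held a half-site, 0.0171% the repeat with 1 base between, 0.00285% each of the other repeats, 11% the RUNX letters, 23.6% those of PU.1, 2.74% the GFI1 core and 6.57% the AP-1 letters. These matches describe the letters only.

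OTOF was close to unread without Corin and was counted in every library with Corin, in both lines. In SKNO-1 it had 1 and 1 estimated counts with DMSO (0.03 and 0.0282 CPM) and 3 and 0 with ATRA (0.0923 and 0 CPM). With Corin it had 490 and 500 counts (14.7 and 15.5 CPM), and with both agents 432 and 504 (13.7 and 15.4 CPM). The libraries with Corin lay far above those without it, and the Corin and combination libraries overlapped. The ratio of the scaled counts of Corin to those of DMSO was 518, with a 95% exact interval of 143 to 4290 that covers counting error only and is wide because the DMSO libraries held 2 counts. The same ratio was 0.967 (0.883 to 1.06) for both agents against Corin alone and 1.51 (0.173 to 18) for ATRA against DMSO. In bulk RNA a larger share of cells that make a transcript and more of it per cell cannot be told apart.

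The contrast of OTOF in SKNO-1 that compared neither the DMSO nor the Corin libraries was both agents against ATRA. There the log2 fold change was 8.27 (SE 0.393, adjusted p = 5.66e-06, quasi-likelihood test of edgeR, Benjamini-Hochberg adjustment over all genes), on 936 counts against 3. DYSF and MYOF were also called in this contrast, so all 3 members were higher where 23% of the genes tested were called higher and 44.8% in either direction. The combination libraries hold Corin too, so this result repeats the contrast that chose OTOF in other libraries of the same line. The fit also took its spread, scaling and filter from all 8 SKNO-1 libraries, the DMSO and Corin libraries among them. OTOF passed the filter on low counts in SKNO-1 only through the groups with Corin as well. When 1 library was left out, the log2 value ran from 7.29 to 11.97, the highest without the ATRA library that had 3 counts.

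In U-937, whose libraries did not enter the choice, OTOF had 0 and 3 counts with DMSO (0 and 0.0983 CPM) and 2 and 0 with ATRA (0.0533 and 0 CPM). With Corin there were 37 and 24 counts (0.949 and 0.754 CPM), and with both agents 86 and 56 (2.44 and 1.85 CPM). The group means with Corin were above those without it, and the mean of the combination was above that of Corin alone. OTOF rose with Corin (log2 fold change 4.08, SE 0.713, adjusted p = 0.000202) and with both agents against DMSO (5.41, SE 0.65, adjusted p = 8.31e-08, edgeR's quasi-likelihood test in each case). The corresponding count ratios were 18.3 (5.96 to 91) and 46 (15.4 to 226). Without DMSO replicate 2, which leaves 0 counts in the DMSO group, the fitted values were 7.89 and 9.21, and both remained called. OTOF passed the filter on low counts only through the groups with Corin, where it is high, so a call here is no separate support. It was also called in both contrasts with no such filter.

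ATRA alone gave no call for OTOF in U-937 (log2 fold change -0.69, SE 1.38, adjusted p = 0.692 by edgeR), with a count ratio of 0.592 whose interval, 0.0495 to 5.17, leaves room for a fall or a moderate rise. With Corin present the value was higher with ATRA than without it: both agents against Corin gave 1.33 (SE 0.408, adjusted p = 0.00708) and a count ratio of 2.52 (1.85 to 3.46). That call was lost in DESeq2 (adjusted p = 0.0606) and without Corin replicate 2 (0.0514) or combination replicate 1 (0.061). The departure of the 2 agents from additivity on the log2 scale was 2.03 (SE 1.44, adjusted p = 0.333), so it did not pass the test, and it turned to -1.79 without DMSO replicate 2. Both agents against ATRA gave 6.10 on the log2 scale (SE 0.692, adjusted p = 6.47e-08, 142 counts against 2), and 9.17 without ATRA replicate 1, which leaves 0 counts with ATRA.

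**Figure D1:**
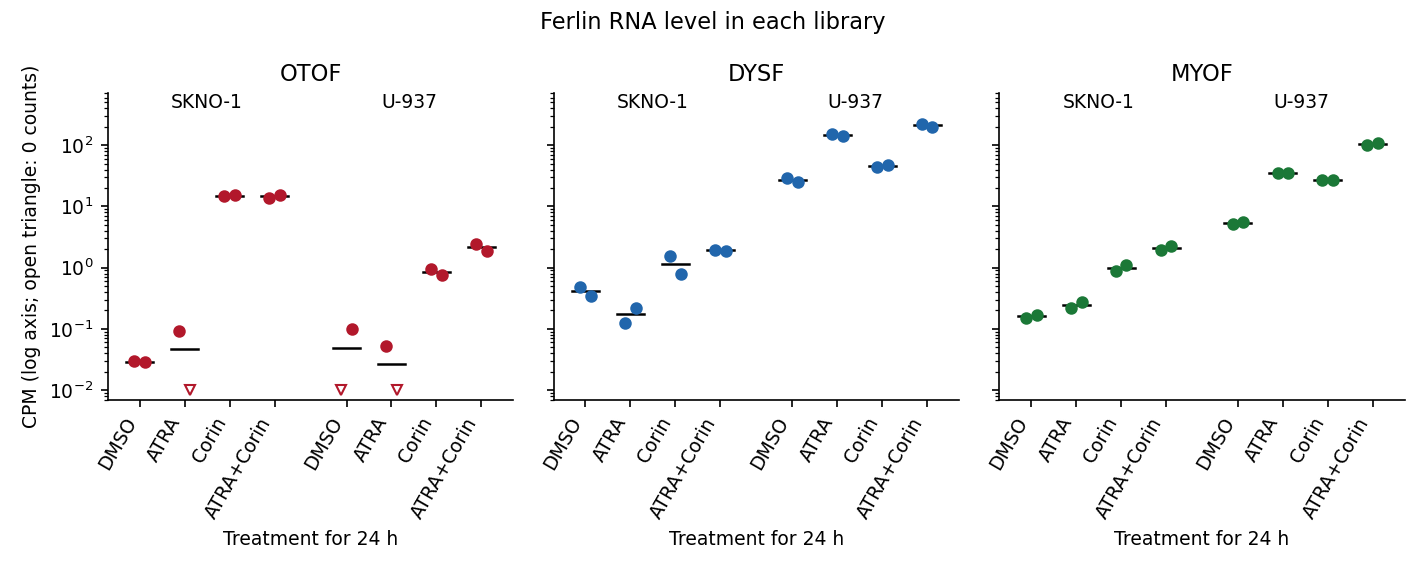
Level in CPM of OTOF, DYSF and MYOF in each library (log axis), by line and treatment; points are libraries, horizontal bars are group means, and open triangles mark libraries with 0 counts. OTOF sits near 15 CPM in the 4 SKNO-1 libraries with Corin and below 2.5 CPM in U-937, while DYSF and MYOF lie higher in every U-937 group than in any SKNO-1 group.

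DYSF was the most abundant ferlin of U-937, and ATRA went with its largest single-agent change there. It had 29.2 and 25.2 CPM with DMSO (966 and 768 counts), 152.2 and 141.8 CPM with ATRA, 43.4 and 48.2 CPM with Corin and 225.2 and 198.3 CPM with both agents. The group means stood in the order DMSO, Corin, ATRA, both. DYSF rose with ATRA 5.40-fold (log2 2.43, SE 0.111, adjusted p = 1.74e-14), with Corin by 0.75 on the log2 scale (SE 0.109, adjusted p = 2.31e-05) and with both agents 7.82-fold (log2 2.97, SE 0.113, adjusted p = 1.24e-16, edgeR). The 3 comparisons share the DMSO libraries. Corin added 0.53 on top of ATRA (SE 0.102, adjusted p = 0.000134), and ATRA added 2.21 on top of Corin (SE 0.108, adjusted p = 1.97e-14). The departure from additivity was -0.22 (SE 0.149, adjusted p = 0.327) and did not pass the test.

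In SKNO-1 DYSF was a rare transcript. It had 16 and 12 counts with DMSO (0.48 and 0.338 CPM), 4 and 8 with ATRA (0.123 and 0.222 CPM), 52 and 25 with Corin (1.56 and 0.773 CPM) and 62 and 62 with both agents (1.96 and 1.90 CPM). The group means stood in the order ATRA, DMSO, Corin, both. With 2 libraries in a group, groups can lie apart without a call. How many of all genes do so was not counted. DYSF rose with both agents (log2 2.28, SE 0.401, adjusted p = 0.00239), and it was also called with Corin alone (1.51, SE 0.417, adjusted p = 0.0226, edgeR). The Corin call rested on replicate 1: without it the log2 value was 0.91 with adjusted p = 0.166. DESeq2 (adjusted p = 0.0505) and a fit to the 4 libraries compared (0.0695) did not call it either.

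ATRA alone gave -1.17 for DYSF in SKNO-1 (SE 0.553, adjusted p = 0.318, edgeR) on 12 counts against 28, which is no call. ATRA on top of Corin gave 0.77 (SE 0.353, adjusted p = 0.181), also no call, although a fit to those 4 libraries alone gave adjusted p = 0.0294. Both agents against ATRA gave 3.45 (SE 0.461, adjusted p = 0.000657). With DMSO replicate 1 or 2 left out, the value for Corin was 1.78 or 1.24 and that for both agents 2.56 or 2.02, all of them called, and that for ATRA was -0.92 or -1.46, not called. The departure from additivity was 1.94 (SE 0.655, adjusted p = 0.274), with adjusted p = 0.0149 without DMSO replicate 2.

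MYOF rose with each agent in U-937 and more with both. It had 5.23 and 5.57 CPM with DMSO (173 and 170 counts), 34.6 and 35.1 CPM with ATRA, 27.2 and 27.2 CPM with Corin and 101.9 and 108.7 CPM with both agents. By mean the order of the groups was DMSO, Corin, ATRA, both. MYOF was 6.45-fold higher with ATRA (log2 2.69, SE 0.116, adjusted p = 6.03e-15), 5.05-fold with Corin (2.34, SE 0.116, adjusted p = 5.2e-13) and 19.6-fold with both agents (4.29, SE 0.118, adjusted p = 4.51e-19, edgeR). Corin added 1.60 on top of ATRA (SE 0.0994, adjusted p = 3.02e-12) and ATRA 1.96 on top of Corin (SE 0.101, adjusted p = 5.23e-14). The combination stood below the sum of the single changes, with a departure of -0.73 (SE 0.152, adjusted p = 0.000797). MYOF was the one member with a called departure from additivity in U-937, where 23.4% of all genes tested had one.

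In SKNO-1 MYOF had 5 and 6 counts with DMSO (0.15 and 0.169 CPM) and 7 and 10 with ATRA (0.215 and 0.277 CPM). It had 29 and 36 with Corin (0.869 and 1.11 CPM) and 61 and 74 with both agents (1.93 and 2.27 CPM). By mean the groups stood in the order DMSO, ATRA, Corin, both. MYOF rose 6.09-fold with Corin (log2 2.61, SE 0.34, adjusted p = 0.000761) and 13.3-fold with both agents (3.74, SE 0.318, adjusted p = 7.04e-05, edgeR). With DMSO replicate 1 or 2 left out these log2 values were 2.52 or 2.66 and 3.66 or 3.79, and all were called. Like OTOF, MYOF passed the low-count filter in SKNO-1 only through the groups with Corin.

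ATRA alone gave 0.66 for MYOF in SKNO-1 (SE 0.419, adjusted p = 0.583), which is no call at 17 counts against 11. ATRA on top of Corin gave 1.13 (SE 0.245, adjusted p = 0.0276), and this call was lost when any 1 of the 4 libraries was left out (adjusted p from 0.101 to 0.222). Both agents against ATRA gave 3.08 (SE 0.296, adjusted p = 0.000145), and the departure from additivity was 0.47 (SE 0.49, adjusted p = 0.723, edgeR).

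**Figure D2:**
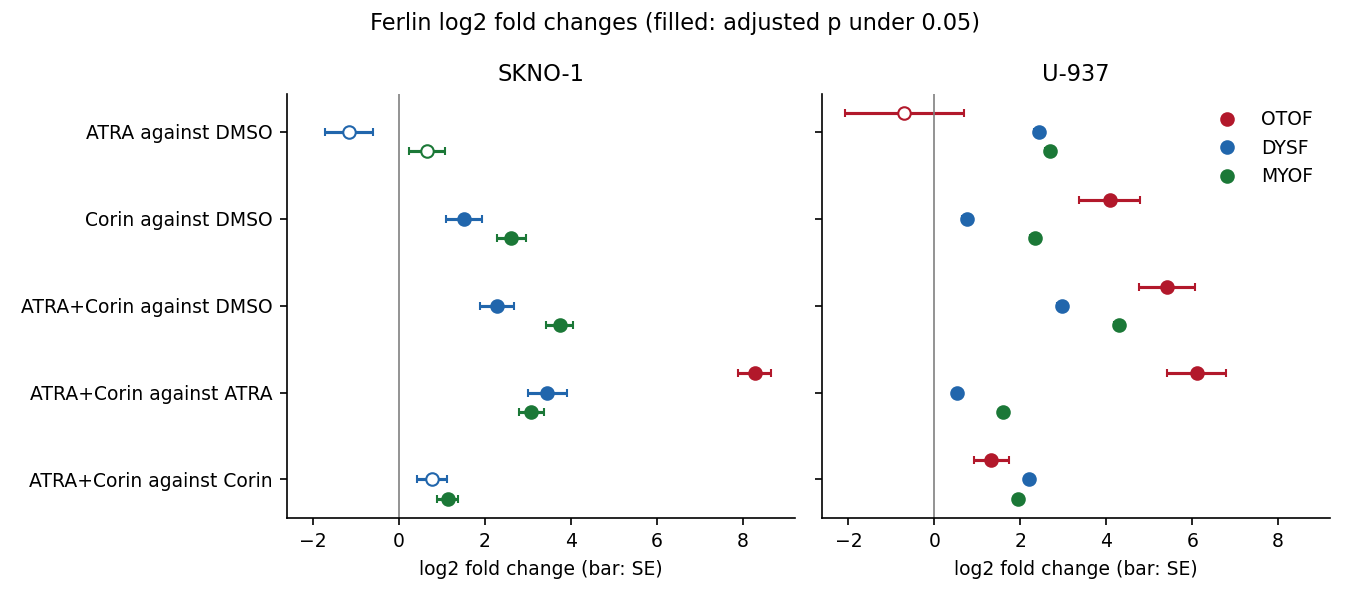
Log2 fold changes of OTOF, DYSF and MYOF in 5 comparisons per line. Points are estimates from edgeR, bars are 1 SE, and filled points have an adjusted p under 0.05. OTOF is left out in SKNO-1 wherever the DMSO or Corin libraries are compared. All members shown lie to the right of 0 with both agents against DMSO and against ATRA, while in ATRA against DMSO DYSF and MYOF are filled in U-937 and open in SKNO-1.

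Counted together and read against all genes, the calls were as follows. In U-937, ATRA raised 2 of the 3 members (DYSF and MYOF), where 21.7% of genes tested were called higher and 41.8% in either direction. Corin raised 3 of 3, where 8.55% were called higher and 12.9% in either direction. Both agents raised 3 of 3, where 33.1% were called higher and 65.3% in either direction. Against ATRA alone the combination raised 3 of 3 (22.5% higher, 47.4% either), and against Corin alone 3 of 3 (29.9% higher, 60.5% either). In Corin against ATRA, OTOF was higher (4.77, adjusted p = 1.45e-05, and 7.84 without ATRA replicate 1), while DYSF (-1.68, adjusted p = 9.26e-12) and MYOF (-0.35, adjusted p = 0.00684) were lower, with 40.1% of genes called by edgeR in either direction.

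In SKNO-1 the 2 tested members gave no call with ATRA, where 6.76% of genes were called in either direction. Both were called higher with Corin, a contrast that entered the choice of OTOF, where 20.5% of genes were called higher and 37.9% in either direction. Both were called higher with both agents as well (24.7% higher, 46.7% either). On top of Corin, ATRA gave a call for MYOF but not DYSF (4.82% higher, 10.4% either). In Corin against ATRA, DYSF (2.68, adjusted p = 0.00291) and MYOF (1.95, adjusted p = 0.00178) were higher, with 42% of genes called by edgeR. Neither had a called departure from additivity, which 0.463% of genes had. With 3 members chosen in view of such values, and OTOF in U-937 and MYOF in SKNO-1 kept by the filter through the groups where they are high, these shares describe them and do not set them apart from other genes.

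The lines differed in which ferlin they held. With DMSO, DYSF was 66.2-fold higher in U-937 than in SKNO-1 (log2 6.05, SE 0.221, adjusted p = 2.36e-14), and MYOF 33.0-fold (5.05, SE 0.221, adjusted p = 1.68e-13), in the edgeR fit to all 16 libraries, where 64.8% of genes differed between the lines. Without SKNO-1 DMSO replicate 1 or 2, the DYSF value was 6.38 or 5.83 and the MYOF value 5.03 or 5.15. OTOF, described only, had 2 counts in SKNO-1 and 3 in U-937 with DMSO, and averaged 15.1 CPM against 0.852 CPM with Corin and 14.5 CPM against 2.15 CPM with both agents. Ranked over the 8 groups, OTOF was highest in SKNO-1 with Corin and with both agents, which overlapped, then in U-937 with both agents and with Corin, and the 4 groups without Corin overlapped at the bottom. DYSF and MYOF ranked every U-937 group above every SKNO-1 group.

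The change with ATRA differed between the lines for both tested members. The interaction, the log2 change in U-937 minus that in SKNO-1, was 3.64 for DYSF (SE 0.521, adjusted p = 5.23e-05) and 2.07 for MYOF (SE 0.449, adjusted p = 0.00691, edgeR), where 19.4% of genes had a called interaction. Without SKNO-1 DMSO replicate 1 or 2 the DYSF value was 3.30 or 3.84 and stayed called. The MYOF value was 2.08 without replicate 1 (adjusted p = 0.0404) and 1.95 without replicate 2, where it was not called (adjusted p = 0.0796, edgeR). For Corin the interaction was -0.76 for DYSF (SE 0.367, adjusted p = 0.193) and -0.27 for MYOF (SE 0.358, adjusted p = 0.775), and for both agents it was 0.73 (SE 0.372, adjusted p = 0.14) and 0.60 (SE 0.366, adjusted p = 0.377). None of these 4 passed the test, with or without either SKNO-1 DMSO library, where 12.8% and 40.6% of genes did. A p that misses the threshold does not show that the lines responded alike.

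Levels of different genes were compared per length, in as TPM, which corrects counts for transcript length, from the authors' files. In U-937 DYSF averaged 5.50 TPM with DMSO, 22.7 TPM with ATRA, 8.22 TPM with Corin and 28.2 TPM with both agents, and MYOF 0.91, 5.18, 4.80 and 12.7 TPM in the same order. The mean of OTOF did not exceed 0.37 TPM in any group there, and its highest library had 0.44 TPM. DYSF thus made up 85.6% of the summed TPM of the 3 genes in the DMSO group, 81.4% under ATRA, 62% under Corin and 68.2% under the combination, while MYOF made up 14.2%, 18.5%, 36.2% and 30.9%. In SKNO-1 with Corin OTOF averaged 3.32 TPM against 0.24 TPM for DYSF and 0.125 TPM for MYOF, which is 90.1% of the sum, and with both agents 2.56 TPM, which is 78.3%. Without Corin the sum of the 3 group means in SKNO-1 was at most 0.135 TPM.

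The other genes of the family stayed near 0. FER1L4, which is annotated as a pseudogene, had at most 7 counts in any library, FER1L5 at most 3 and FER1L6 at most 11, and none passed the filter on low counts, so none was tested in the edgeR fits. In SKNO-1 FER1L6 had 0 and 0 counts with DMSO, 2 and 2 with ATRA, 5 and 6 with Corin and 11 and 9 with both agents. FER1L4 had 0 and 0, 0 and 1, 6 and 6, and 6 and 7 in the same order. FER1L5 was listed at 0 in all 8 SKNO-1 libraries. The SKNO-1 libraries with Corin were thus the higher ones for FER1L4 and FER1L6 too. The authors' deposited table of both agents against DMSO in SKNO-1 gives FER1L6 a log2 fold change of 5.85 (adjusted p = 0.0248, DESeq2) and FER1L4 one of 5.22 (adjusted p = 0.0908), each against a group at 0 counts.

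RSEM also writes for each gene a length averaged over its transcripts by their estimated abundance, which describes the estimated mix of transcripts. Over the 8 libraries with at least 24 OTOF counts this length ran from 3643 to 4427 bases. All 8 values lay below the 7214 and 6937 bases of OTOF-201 and OTOF-205, the 2 transcripts that open at the upstream promoter (positions 26558756 and 26558678). The transcripts OTOF-202, OTOF-203 and OTOF-204, of 4954, 4838 and 5108 bases, open at the internal promoter (26478042, 26478124 and 26478042), whose sequence with the 2 half-sites is printed above, and OTOF-206 and OTOF-207 are shorter still at 557 and 918 bases. The files list 1 more OTOF transcript that was not found in GENCODE release 44 and whose length is not known here, so the mix cannot be read from the mean. Libraries with 0 OTOF counts were given 4288.75 bases, a value inside the range above, so these lengths do not show use of the shorter transcripts. Which start is used was not measured.

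The same length was 5034 to 5767 bases for DYSF in the 8 U-937 libraries, against a longest transcript of 6952 bases, and 5415 to 6337 bases for MYOF against 6860. In SKNO-1, where 4 libraries reached 24 counts, the DYSF length ran from 2220 to 6238 bases, on at most 62 counts. The files list 8 OTOF, 19 DYSF and 9 MYOF transcripts, of which 7, 19 and 9 were found in GENCODE release 44.

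**Figure D3:**
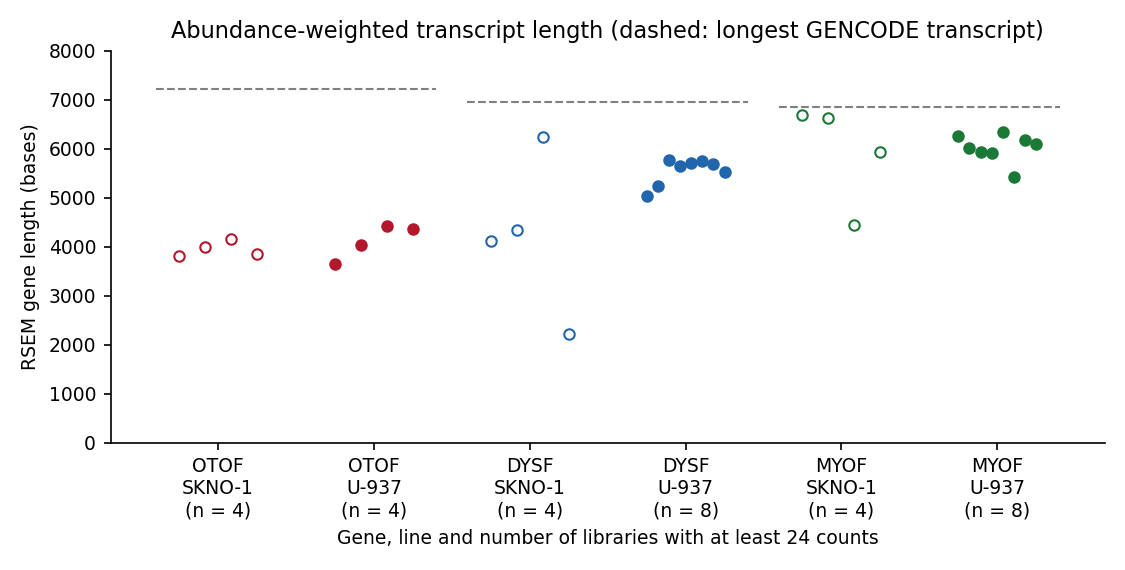
Abundance-weighted transcript length in bases that RSEM gives for each ferlin gene, 1 point per library with at least 24 counts; open points are SKNO-1, filled points U-937, and dashed lines mark the longest annotated transcript. OTOF lies between 3643 and 4427 bases in all 8 libraries, far below its longest transcript of 7214 bases, while the U-937 values of DYSF and MYOF lie closer to theirs. The OTOF range also holds 4288.75 bases, the value given to libraries with 0 OTOF counts.

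Several genes beside the ferlins had too few counts to test, and those tested moved in different directions. Around OTOF, SELENOI, an enzyme of phospholipid synthesis, fell with both agents against DMSO, by 0.52 on the log2 scale in SKNO-1 (adjusted p = 0.00128, edgeR). The fall in U-937 was 1.36 (adjusted p = 2.75e-11). DRC1, whose end lies 0.492 kb from that of OTOF, had at most 9 counts over the 2 libraries of a group. FAM166C, 3.83 kb beyond the OTOF start, had at most 1, KCNK3 at most 2, and CIB4 was listed at 0 throughout. ADGRF3 averaged at most 0.766 CPM in any group. Of the 6 coding genes nearest to OTOF, only SELENOI and ADGRF3 had enough counts to test, so the others could not have been called. Neither of them was called higher with both agents in either line, where 24.7% (SKNO-1) and 33.1% (U-937) of genes tested were.

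DYSF lies 18.5 kb from ZNF638, which with both agents fell by 0.36 in SKNO-1 (adjusted p = 0.00413) but rose by 0.98 in U-937 (adjusted p = 1.82e-08, edgeR). With ATRA alone ZNF638 rose by 0.469 in U-937 (adjusted p = 0.000883, edgeR). PAIP2B, farther out on that side, was higher in SKNO-1 with Corin (log2 1.18, adjusted p = 0.00474) and with both agents (1.11, adjusted p = 0.00472, edgeR). It averaged 1.91 CPM with both agents against 0.913 CPM with DMSO. MPHOSPH10 averaged less with both agents than with DMSO in both lines (51.7 against 82.3 CPM and 48.2 against 79.9 CPM). The start of DYSF is overlapped on the other strand by the long noncoding RNA ENSG00000289327 (71453081 to 71454470). The strand setting of the counting is not given in the sources used here, so reads of that stretch may belong to either gene. No other annotated gene overlaps a member.

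Each of DYSF and MYOF has CYP26 and exocyst genes beside it. CYP26A1, an enzyme that breaks down retinoic acid and a known target of its receptors, lies 228.5 kb from MYOF. It had 1 count over the SKNO-1 DMSO libraries, 423 with ATRA, 1 with Corin and 1360 with both agents. In U-937 it had 3, 1, 0 and 0 counts. CYP26A1 thus followed ATRA in SKNO-1 and had a single count with ATRA in U-937, whereas the call for MYOF with ATRA was made in U-937. CYP26C1 had between 8 and 14 counts over the 2 libraries of each group, and CYP26B1, 442.5 kb beyond DYSF, had 1 count in all 16 libraries. EXOC6 fell by 0.275 in SKNO-1 with both agents (adjusted p = 0.03, edgeR). CEP55, 14.3 kb from the MYOF start, averaged 42.9 CPM with both agents against 68.6 CPM with DMSO in U-937. FFAR4, 84.3 kb from MYOF, rose by 1.08 with Corin in SKNO-1 (adjusted p = 0.0477), at 0.929 CPM against 0.438 CPM with DMSO. With both agents it gave 0.903 (adjusted p = 0.0792, edgeR), no call, and in U-937 it had at most 2 counts in a group. RBP4 had at most 6 counts over the 2 libraries of a group.

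**Figure D4:**
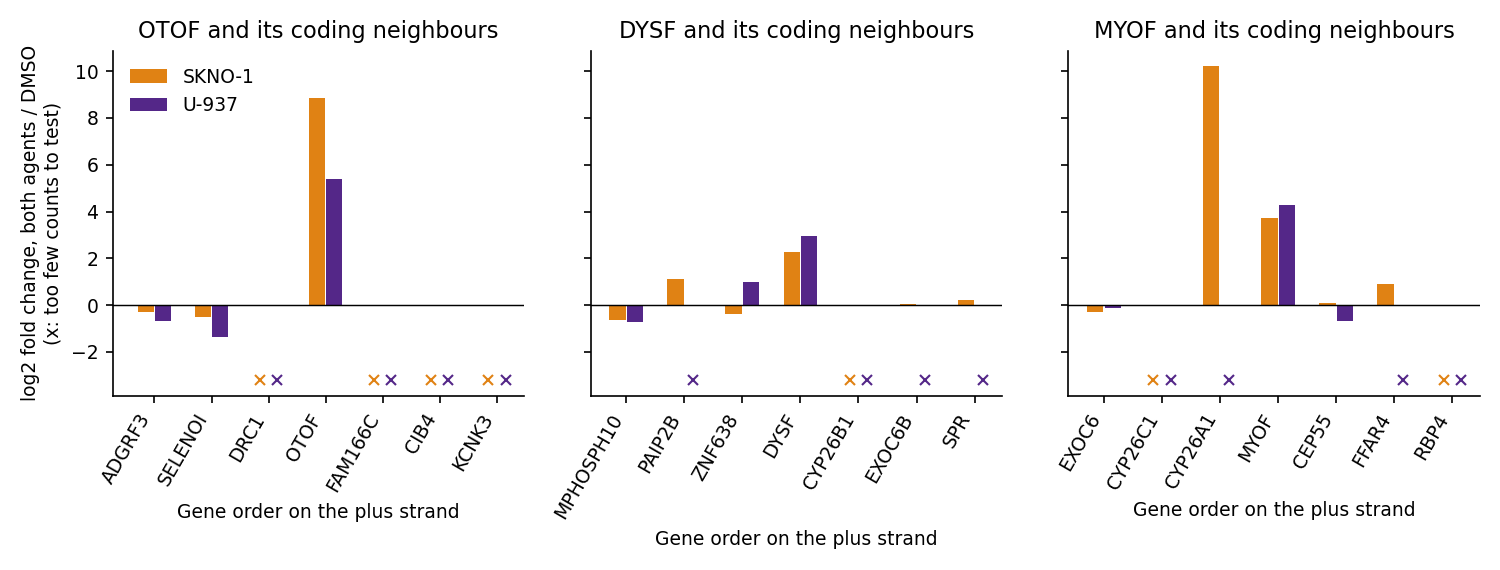
Log2 fold change of both agents against DMSO for each ferlin gene and its 3 nearest coding genes on each side, in gene order; orange bars are SKNO-1, purple bars U-937, and crosses mark genes with too few counts to test. The SKNO-1 bar of OTOF uses the DMSO libraries from which the gene was chosen, so its height is no result. Beside OTOF, DRC1, FAM166C, CIB4 and KCNK3 had too few counts for a bar. Among the genes with a bar, DYSF has the tallest of its panel, and beside MYOF the SKNO-1 bar of CYP26A1 is taller, at 10.2.

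The lists of related genes put these values beside the machinery that ferlins work with. These lists and the marker lists below were chosen with earlier results of these data known. A share above that of all genes is therefore no independent support for a response of a list. Of 23 partners in membrane repair, such as annexins, S100 proteins, calpains and ESCRT subunits, 22 were tested in SKNO-1. With ATRA none rose and 7 fell (median log2 change -0.462), with Corin 14 rose and 2 fell (0.972), and with both agents 15 rose and 3 fell (0.715). Of all genes tested, 2.96% rose and 3.79% fell with ATRA, 20.5% and 17.3% with Corin, and 24.7% and 22% with both agents. The medians over all genes tested were 0.0117, 0.00129 and 0.0549. Without SKNO-1 DMSO replicate 1 or 2, 1 rose and 9 or 12 fell with ATRA, 15 rose and 3 or 4 fell with Corin, and 17 or 15 rose and 5 or 4 fell with both agents. In U-937, of 20 tested, 11 rose and 4 fell with ATRA (0.408), 8 rose and none fell with Corin (0.176), and 13 rose and 4 fell with both agents (0.622), where the medians of all genes were 0.0181, 0 and 0.0339. The shares of all genes there were 21.7% higher and 20.1% lower with ATRA, 8.55% and 4.4% with Corin, and 33.1% and 32.2% with both agents.

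Among the partners in U-937, ANXA1 (log2 4.43, SE 0.137), ANXA2 (1.77, SE 0.12) and S100A10 (1.62, SE 0.122) rose with both agents. These are 2 annexins, which bind phospholipid with calcium, and the S100 partner of ANXA2. In SKNO-1 ANXA2 (2.13, SE 0.0778), BIN1, which bends membranes (1.78, SE 0.187), and the caveolar coat protein CAVIN1 (1.38, SE 0.092) rose. With ATRA alone in SKNO-1 ANXA1 fell by 1.36 (adjusted p = 4.7e-05) and ANXA2 by 0.801 (adjusted p = 0.000786), while in U-937 ANXA1 rose by 2.52 (adjusted p = 1.18e-12) and ANXA2 fell by 0.461 (adjusted p = 0.00276, edgeR). The log2 interaction of ATRA with line was 3.92 for ANXA1 (SE 0.171, adjusted p = 1.43e-11) and 0.38 for ANXA2 (SE 0.152, adjusted p = 0.0927, edgeR).

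Of 37 other proteins with C2 domains, such as synaptotagmins and extended synaptotagmins, 18 were tested in SKNO-1. With Corin 10 rose and 4 fell (median 1.03), and with both agents 9 rose and 5 fell (0.931). With ATRA none rose and 3 fell (-0.13), and 6 fell without SKNO-1 DMSO replicate 2. Of all genes in SKNO-1 20.5% rose and 17.3% fell with Corin, 24.7% and 22% with both agents, and 2.96% and 3.79% with ATRA. With a mean of at least 1 CPM required, 13 were tested. Of these 6 rose and 4 fell with Corin (-0.157), and 5 rose and 5 fell with both agents (0.039). The higher medians thus rested on genes below that level. In U-937, of 24 tested, 4 rose and 6 fell with ATRA (-0.184), 6 rose and 1 fell with Corin (0.0823), and 9 rose and 6 fell with both agents (0.353). These U-937 counts with ATRA and with both agents lie near or below the shares of all genes (21.7% higher and 20.1% lower, 33.1% higher and 32.2% lower), so they say little about the list. SYT11, a synaptotagmin of vesicle membranes, rose with both agents in SKNO-1 (1.52, SE 0.0888) and U-937 (3.61, SE 0.193). SYTL3 (3.13, SE 0.146) and SYT17 (2.46, SE 0.194) rose in U-937, while ESYT1 and ESYT2, which tether the endoplasmic reticulum to the plasma membrane, fell by 1.44 (SE 0.0857) and 0.682 (SE 0.055) in SKNO-1.

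Of 21 SNARE proteins and regulators, which drive the fusion that ferlins are thought to act on, 20 were tested in each line. In U-937 12 rose and none fell with ATRA (median 0.302), 5 rose and none fell with Corin (0.0986), and 14 rose and 1 fell with both agents (0.596), where 21.7%, 8.55% and 33.1% of all genes rose. STX11 (2.12, SE 0.168), STX12 (1.86, SE 0.101) and STXBP2 (1.72, SE 0.116) rose there with both agents. In SKNO-1 1 rose and 1 fell with ATRA (-0.00515), and 6 rose and 4 fell with Corin (0.14). With both agents 5 rose and 4 fell (-0.0948), close to the 24.7% higher and 22% lower of all genes. The shares of all genes were 2.96% higher and 3.79% lower with ATRA, and 20.5% and 17.3% with Corin. Those SKNO-1 counts depended on the DMSO libraries: without replicate 2, 5 rose and 4 fell with ATRA, 9 rose and 8 fell with Corin, and 7 rose and 5 fell with both agents. Without replicate 1, 2 rose and 3 fell, 7 rose and 6 fell, and 6 rose and 7 fell. STX3 rose by 0.97 (SE 0.119) in SKNO-1, and NSF and VAMP3 fell by 0.582 (SE 0.0681) and 0.446 (SE 0.0716). SNAP25, a SNARE of synapses, was listed at 0 in all 16 libraries.

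**Figure D5:**
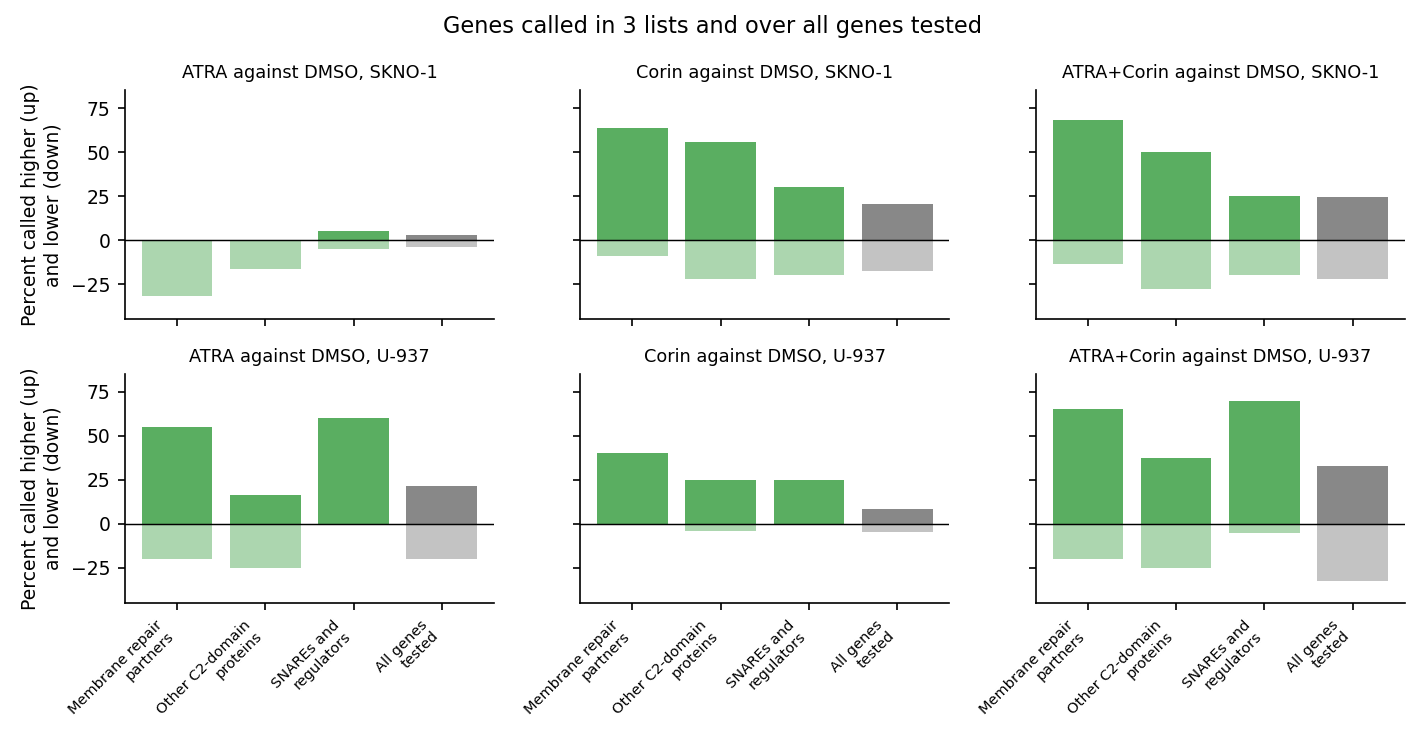
Percent of tested genes called higher (above 0) and lower (below 0) in 3 lists of genes related to ferlins and over all genes tested, for 3 comparisons in each line. Membrane repair partners have the tallest bar above 0 in both SKNO-1 comparisons with Corin and no bar above 0 with ATRA there, and SNARE genes the tallest in U-937 with ATRA and with both agents. The lists were chosen with earlier results of these data known, so the bars describe them only.

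The tissues that ferlins are best known from were checked through their markers. Of 14 hair cell genes, between 5 and 7 were at 0 in any group, and their summed level ran from 1.52 to 6.7 CPM over the SKNO-1 libraries and from 9.44 to 23.4 CPM over those of U-937. CDH23, a cadherin of hair bundles, rose with both agents by 5.42 in SKNO-1 (adjusted p = 0.000105), to 164 counts over 2 libraries, and by 4.95 in U-937 (adjusted p = 1.42e-14, edgeR), to 968. MYO7A, a myosin of the same bundles, rose by 1.82 in SKNO-1 (adjusted p = 0.00187), while it fell by 1.21 in U-937 (adjusted p = 9.99e-07). SLC17A8, the glutamate transporter of inner hair cells, had at most 2 counts over the libraries of a group and POU4F3 at most 8.

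Of 14 skeletal muscle genes, between 6 and 9 were at 0 in any group, and the master regulator MYOD1 was listed at 0 in all 16 libraries. TTN rose by 1.68 (SE 0.15) and NEB fell by 0.787 (SE 0.116) with both agents in SKNO-1, and NEB rose by 2.67 (SE 0.218) in U-937. CAPN3, a calpain that interacts with dysferlin, rose with both agents by 1.35 (SE 0.152) in SKNO-1 and by 2.87 (SE 0.22) in U-937.

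Most monocyte genes tested rose with Corin and with both agents in each line. Of 10 such genes 8 were tested in SKNO-1, and 3 rose and 3 fell with ATRA, while all 8 rose with Corin and with both agents (7 with Corin without either SKNO-1 DMSO library). Of all genes 2.96% rose with ATRA, 20.5% with Corin and 24.7% with both agents there. In U-937, of 9 tested, 7 rose and 1 fell with ATRA, 8 rose with Corin and 9 with both agents, where 21.7%, 8.55% and 33.1% of all genes rose. ITGAM, an integrin of monocytes and granulocytes, rose by 8.25 (SE 0.137) in SKNO-1 and by 6.31 (SE 0.128) in U-937 with both agents. The summed level of the 10 genes in SKNO-1 ran from 111 to 113 CPM (DMSO), 88.7 to 90.9 (ATRA), 518 to 557 (Corin) and 655 to 672 (both agents). In U-937 it ran from 485 to 536, 1020 to 1060, 2350 to 2820 and 3930 to 4310 CPM in the same order. CD14 was listed at 0 in SKNO-1 with DMSO and with ATRA and was low throughout. Whether the ferlin changes go with this shift was not tested.

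Over libraries DYSF and MYOF followed each other across and within the lines. OTOF followed both in SKNO-1 only, and in U-937 it was closer to MYOF than to DYSF. The Pearson correlation of log2(CPM + 1) between DYSF and MYOF was 0.971 over the 16 libraries, 0.908 over the 8 of SKNO-1 and 0.903 over the 8 of U-937. OTOF correlated with DYSF at -0.256 over 16 libraries but 0.891 in SKNO-1 and 0.488 in U-937, and with MYOF at -0.133, 0.909 and 0.758. These values describe groups of 2 libraries that share treatments, and they carry no test. The SKNO-1 values of OTOF include the Corin and DMSO libraries from which it was chosen. Among 12989 genes with a symbol and a mean of at least 1 CPM, the 3 whose pattern over the 16 libraries was most like that of OTOF were ANKRD6 (r = 0.983), LRP1 (0.980) and TRIM7 (0.979). They were TRPM4 (0.995), SLA (0.995) and ILK (0.993) for DYSF, and CHMP4B (0.993), HNMT (0.990) and CXCR4 (0.989) for MYOF. CHMP4B was also on the list of membrane repair partners.

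In the authors' deposited table of Corin against DMSO in SKNO-1, OTOF has a log2 fold change of 8.99, DYSF 1.49 (adjusted p = 0.145, DESeq2) and MYOF 2.61 (adjusted p = 0.0153). In the authors' deposited table of both agents against DMSO in U-937 the values are 5.48 for OTOF (adjusted p = 2.69e-07), 2.94 for DYSF and 4.27 for MYOF. In the authors' deposited table of Corin against DMSO in U-937, OTOF has 4.16 with an adjusted p of NA, so the call made for it here is not made there. All 6 of the authors' deposited tables give the members the direction found above, and the DYSF call with Corin in SKNO-1 is not made in the authors' deposited table.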

How the data were processed

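Per the labels, total RNA freed of DNA with DNase went into stranded libraries that were read on a NovaSeq instrument. Per the submitters' processing notes, Trimmomatic, STAR, RSEM, deepTools and DESeq2 were used with hg38. Versions, the annotation release and the strand setting are not given in the sources used here. The deposited values are RSEM's estimated counts of each gene, which the authors gave with TPM and gene lengths for each library. They also deposited log2 fold changes and adjusted p-values from DESeq2 for their comparisons, per the file headers. Of the positive estimated counts 20.4% were not whole, since RSEM divides reads that fit several genes.

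The estimated counts were rounded, which changed a library's total by at most 42.03. In edgeR 4.0.16 (R 4.3.3), genes were kept by filterByExpr (17479 in SKNO-1, 17717 in U-937, 19872 over both lines) and scaled by TMM. A robust quasi-likelihood model was fitted to the 8 libraries of each line (4 residual degrees of freedom) and to all 16 libraries for differences between lines. P-values were adjusted over all genes tested, and a gene was called at an adjusted p under 0.05. The SE was the unshrunken log2 fold change over the root of F. CPM values use the scaling of the 16-library fit. Intervals of count ratios are exact at 95% and cover counting error only, since the reads carry no molecular identifiers. The fits were tested on simulated data. Alternatives were DESeq2 1.42.0, library totals without TMM, no filter, non-robust fits, removal of a GC trend, a replicate block, only the 4 libraries compared, and leaving out each library.

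The members and the gene lists were chosen with earlier results of these data known. Named genes were the ferlins, the 3 nearest coding genes on each side, the CYP26 and exocyst genes, the 3 most alike genes, and up to 3 genes per list with the largest called change with both agents and a mean of at least 5 CPM in a line. CDH23 and MYO7A in SKNO-1, SLC17A8, POU4F3, MYOD1, SNAP25, CD14, and ANXA1 and ANXA2 with ATRA were named after their values were seen. Markers of erythroid, lymphoid, endothelial and fibroblast cells are given in the closing section. Promoter sequences are from RefSeq (GRCh38.p14). Scaling to the spike-in was not used here.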

Additional observations from a re-analysis of the deposited data

Results flagged for a closer look

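The response of DYSF to ATRA differed between the lines by a log2 interaction of 3.64 (adjusted p = 5.23e-05, edgeR's quasi-likelihood test over all genes). It is set apart because the change in U-937 was 2.43 and the value in SKNO-1 was -1.17. The SKNO-1 value was no call, on 12 counts against 28.

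The response of MYOF to ATRA differed between the lines by 2.07 (adjusted p = 0.00691, edgeR), with 2.69 in U-937 and 0.66 in SKNO-1, where 17 counts stood against 11. Taken alone, the SKNO-1 value was no call. GM-CSF was in the SKNO-1 medium only, so line and medium cannot be told apart.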

How the results depend on the processing

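Of 510 alternative values for 44 results, 491 kept their direction and side of the threshold, 12 lost a call, 4 gained one and 3 changed sign. The cause was not tested. DYSF with Corin in SKNO-1 was 1.51 (adjusted p = 0.0505) in DESeq2, 1.52 (0.0695) with only the 4 libraries compared, and 0.91 to 1.92 with a library left out. DYSF in both agents against Corin in SKNO-1 was 0.78 (0.0294) with only those 4 libraries. Its departure from additivity there was 1.97 (0.0201) without the low-count filter and 1.52 to 2.53 with a library left out. OTOF in both agents against Corin in U-937 was 1.33 (0.0606) in DESeq2 and 1.12 to 1.51 with a library left out. With a library left out, MYOF ran from 0.96 to 1.31 in both agents against Corin in SKNO-1, from -0.37 to -0.34 in Corin against ATRA in U-937 (lost without ATRA replicate 2, adjusted p = 0.0758), and from 1.85 to 2.21 in the ATRA interaction. The DYSF Corin interaction ran from -1.16 to -0.14, called without SKNO-1 Corin replicate 2 (0.0353). OTOF with ATRA in U-937 ran from -3.77 to 3.12 and was positive without DMSO replicate 2 (3.12) and without ATRA replicate 2 (0.15). Its departure from additivity ran from -1.79 to 5.10, negative without DMSO replicate 2. The other OTOF calls in U-937 held, with 3.07 to 7.89 for Corin and 4.40 to 9.21 for both agents against DMSO, 5.25 to 9.17 for both agents against ATRA and 3.93 to 7.84 for Corin against ATRA; the highest of these leave a single library with 0 counts as the reference.

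Replicate numbers are shared between groups in the labels. The differences between replicates 1 and 2 correlated from -0.593 to 0.445 between groups, so no steady pairing by number was seen. This check cannot exclude a shared culture behind the numbers, because trends with GC content (r = 0.797 in SKNO-1 DMSO) enter the same differences. The replicate block changed no member's call; under it DYSF with Corin in SKNO-1 was 1.49 (adjusted p = 0.0301). The block lowered the genes called in both agents against Corin in SKNO-1 from 1822 to 1066 and in the SKNO-1 departure from additivity from 81 to 20.

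The number of genes called moved by over 1.5 times elsewhere too. In SKNO-1 with ATRA it was 1181, but 1963 without the filter, 2192 with the GC trend removed, 239 with only 4 libraries and 562 to 5335 with a library left out. With Corin it was 6619, but 3776 with only 4 libraries, where 64.6% of calls were higher against 54.2%, and as low as 3626 with a library left out. In both agents against Corin it was 1822, but 4238 without the filter, 7440 with only 4 libraries and as low as 397 with a library left out, and removal of the GC trend moved the share called higher from 46.3% to 58.4%. In both agents against ATRA it was 7828 (lowest 4962 with a library left out), and in Corin against ATRA 7343 (4476). The departure from additivity had 81, but 1445 without the filter, 419 with the GC trend removed, 272 in DESeq2 and 7 to 5648 with a library left out. With Corin in U-937 it was 2293 (lowest 1332). The Corin interaction had 2538, but 4045 with the GC trend removed, where 52.3% were higher against 41.4%, and 1524 to 4471 with a library left out. With library totals only, 42.3% of ATRA interactions were higher against 54.5%, and the median of all genes was 0.148 in U-937 against SKNO-1 with DMSO, -0.109 in both agents against Corin in U-937 and -0.263 in the interaction of both agents, against -0.0146, 0.0198 and -0.107 with TMM. No member changed direction or call under that scaling. With a mean of at least 1 CPM required, 18 of 124 list counts moved by over 1.5 times. Among groups without Corin, OTOF had at most 3 counts per group, where only large changes could be shown.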

Other observations

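Beyond the far end of DYSF on chromosome 2, counts were absent from U-937 over a run of neighbouring genes, which were chosen after their values were seen. EXOC6B (72175984 to 72826041), a subunit of the exocyst that tethers vesicles, had 615 counts over the 8 SKNO-1 libraries and 0 in all 8 of U-937. SPR (72887382 to 72892158), an enzyme of tetrahydrobiopterin synthesis, had 1321 in SKNO-1 and 0 in U-937. CYP26B1 and EMX1, which lie among them, had 1 and 0 counts in SKNO-1 and 0 in U-937. On either side the genes were counted in U-937: DYSF itself on the near side, and SFXN5 (3860 counts) and RAB11FIP5 (7331 counts) in 8 of 8 libraries on the far side. SKNO-1 had 1116 and 79 counts of the latter pair. The U-937 depth was 28.4 to 37.6 M counts per library. A count of 0 over all 8 of these libraries allows up to 3 expected counts in the 8 together. The cause was not tested.

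Markers of cell types other than myeloid cells were at low summed levels in SKNO-1, and several moved with Corin. Summed over 7 erythroid and megakaryocyte genes the level in SKNO-1 ran from 7.61 to 12.7 CPM with DMSO and from 37.5 to 37.9 CPM with Corin, with 6 and 5 of the genes at 0, against 4.31 to 4.58 CPM with ATRA and 32.9 to 33.8 CPM with both agents, and it did not exceed 0.727 CPM in U-937. Its member ITGA2B, the platelet integrin, rose by 1.76 (SE 0.211) on the log2 scale in SKNO-1 with both agents. Summed over 8 lymphoid genes it ran from 2.4 to 2.76 CPM with DMSO and from 6.18 to 6.35 CPM with Corin in SKNO-1, where 3 of 4 tested genes rose, against 20.5% of all genes, and from 74.8 to 139 CPM over the U-937 libraries. Summed over 8 endothelial and fibroblast genes it ran from 15.3 to 19.3 CPM with DMSO and from 27.1 to 27.7 CPM with Corin in SKNO-1. In U-937 it ran from 56.3 to 61.6 CPM with DMSO and from 255 to 293 CPM with both agents. PECAM1, an adhesion molecule that leukocytes share with endothelium, rose with both agents by 1.53 (SE 0.114) in SKNO-1 and by 2.22 (SE 0.105) in U-937. The part of these shifts in the ferlin changes was not tested.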
